A study of Homo sapiens with 6 samples.

Results

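The 10 genes described here encode growth factors of the platelet-derived (PDGF), vascular endothelial (VEGF) and fibroblast (FGF) families, with 2 FGF receptors and 1 FGF carrier protein. They are PDGFA, PDGFB, PDGFC, VEGFA, VEGFB, VEGFC, FGF2, FGFR1, FGFR3 and FGFBP1, taken by symbol from the 58735 gene rows of the deposited expression table, where each has 1 row. All libraries came from T24, an immortal line derived from a human urothelial carcinoma of the bladder, with a genotype labelled WT, so the series is 1 cell line grown alone, without the endothelial cells, fibroblasts and mural cells that carry many of the receptors in tissue. TGF-β1 (10 ng/ml, 48 h) had been given to the cells of 3 libraries and not to those of the 3 control libraries, all labelled day 2. Both groups grew in the medium the labels call MCC with 10% fetal bovine serum, which itself carries growth factors. The comparison asks which of these transcripts differ with the treatment, and the series' title concerns epithelial-to-mesenchymal transition and tumour stemness.

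PDGFs and VEGFs are secreted dimers held by disulfide bonds, and they are related in structure. PDGF dimers bind the receptor tyrosine kinases PDGFRA and PDGFRB, which are typical of fibroblasts and mural cells, and VEGFs bind FLT1, KDR and FLT4, which are typical of blood and lymphatic endothelium, with neuropilins as co-receptors. FGFs bind FGFR kinases together with heparan sulfate, and FGFBP1 releases FGF2 from the matrix. In urothelial carcinoma FGFR3 is known as a frequently activated oncogene, chiefly of luminal papillary tumours, and TGF-β is known to induce PDGF ligands in several cell types.

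The libraries held 20703945 to 23678772 fragments assigned to genes, with 93.5 to 95.5% of reads mapped. FPKM, the unit used here, is fragments per kilobase of annotated exon, divided by a denominator per library that was close to its depth. Whether the 3 libraries of a group are separate cultures is not labelled, so p-values reflect no more than the spread among these libraries, which may be technical. As a check of the treatment label, SMAD7, the inhibitory SMAD, was at 2.05 to 2.65 FPKM in control and 5.70 to 7.45 FPKM in TGF-β1 libraries. In the limma test described below 5 of 6 known TGF-β targets rose, beside 1.14% of all tested genes. Of the 5, TGFBI was at 0.641 to 0.905 FPKM in control. It met the filter of 1 FPKM through its TGF-β1 libraries alone (2.38 to 3.04 FPKM). Of 15 urothelial and epithelial markers 5 were tested (KRT7, KRT8, KRT18, UPK1B and PPARG), and 0 of them passed the test. In voom, a count test described below, 2 were lower (KRT7, adjusted p = 0.025, and KRT18, adjusted p = 0.0075), as were 4.82% of all genes. KRT5, KRT14, KRT19 and UPK3A were listed at 0 in every library. The remaining markers, CDH1, EPCAM, GATA3, KRT20, TP63 and UPK2, were at most 0.331 FPKM in any library. The summed level of this list was 474 to 641 FPKM in control and 410 to 441 FPKM in TGF-β1 libraries. Most of that sum was KRT8 (means 222 and 188 FPKM) and KRT18 (322 and 227 FPKM). The part of this list in the results below was not tested. Endothelial, fibroblast or mural, and leukocyte markers summed to at most 0.862, 0.421 and 0.338 FPKM in any library, and TEK, COL1A2 and CD3E were listed at 0.

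Among the 10 genes, PDGFB was the one that rose with TGF-β1 in the test over all genes, and no member fell. PDGFC and VEGFC were also higher in every TGF-β1 library than in any control library, but missed the threshold (limma adjusted p = 0.076 and 0.055). PDGFA was higher too, at a level too low for that test. VEGFA, FGF2, FGFR1, FGFR3 and FGFBP1 had overlapping groups, and so did VEGFB, the most abundant member in control cells. The test was limma on log2(FPKM + 1) with Benjamini-Hochberg adjustment over 11363 genes at 1 FPKM or more in at least 3 libraries, and adjusted p-values below come from it unless another test is named. It took in 7 members, of which 1 passed higher and 0 lower, while 1.14% of all tested genes passed higher and 1.29% lower. At an unadjusted p under 0.05 3 members were higher (PDGFB, PDGFC and VEGFC) and VEGFB lower, as were 11.2% and 13.9% of all tested genes. Of the 7, 3 had groups that did not overlap, all higher with TGF-β1, against 14.6% of all tested genes higher and 12.5% lower. The median log2 change of the 7 was 0.16, beside 0.01 over all tested genes. Fewer cells making a transcript and less of it per cell cannot be told apart in such bulk libraries.

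The members' counts moved with the settings of the test. With no filter 0 members passed (0.0389% of all genes higher and 0.0141% lower). Among genes at 5 FPKM or more in at least 3 libraries, 3 of 5 passed higher (PDGFB, PDGFC and VEGFC), beside 2.67% of all higher and 4.79% lower. VEGFC, at 3.27 to 4.49 FPKM in control, met that filter through its TGF-β1 libraries alone (5.51 to 6.39 FPKM). Its pass in that setting therefore adds no support. After subtraction from each library of its loess fit on GC content and length of genes, called GC-adjusted below, 2 passed higher (PDGFB and VEGFC; 2.54% of all higher and 1.94% lower). Without control 3, the library farthest from its group, 4 passed higher (those 3 and FGF2) and VEGFB lower, but so did 12.8% and 16.8% of all genes.

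**Figure D1:**
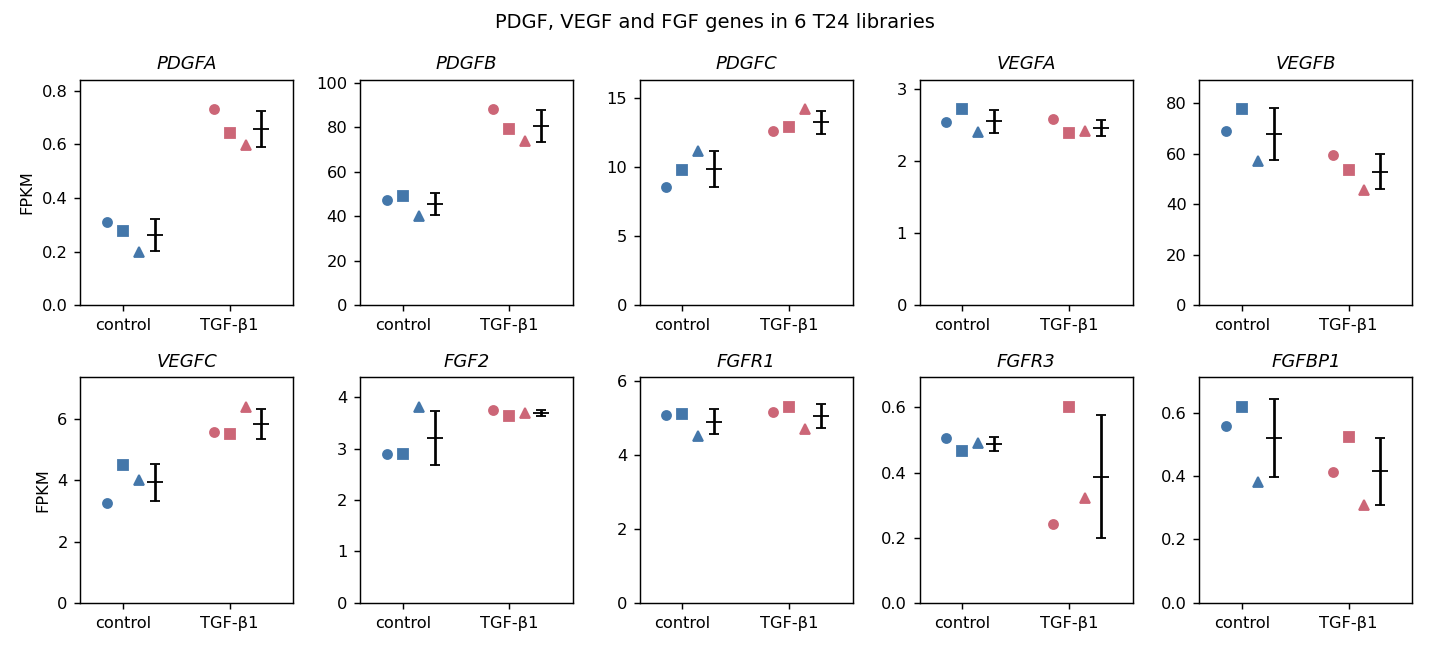
FPKM of each of the 10 genes (vertical axes from 0, a separate scale per gene) in the control and TGF-β1 libraries. Circles, squares and triangles are replicates 1, 2 and 3, and bars show the mean and SD of 3 libraries. PDGFA, PDGFB, PDGFC and VEGFC are higher in all TGF-β1 libraries than in any control library, and the other 6 overlap.

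PDGFB, which encodes the B chain found in PDGF-BB and PDGF-AB dimers, lies on chromosome 22 at 39223359 to 39244751 (minus strand, GENCODE release 29 on GRCh38). It was at 47.2, 49.3 and 40.0 FPKM in control libraries 1, 2 and 3 and at 88.2, 79.2 and 74.0 FPKM in the TGF-β1 libraries. The lowest TGF-β1 library was thus well above the highest control library. The means were 45.5 ± 4.85 and 80.5 ± 7.19 FPKM (SD, n = 3), a ratio of 1.77, and the log2 change was 0.81 (SE 0.11, 95% interval 0.56 to 1.06, limma adjusted p = 0.0034). These values rest on 3481 to 4196 fragments per control library and 6607 to 7147 per TGF-β1 library. Leaving out any single library left the call in place, with adjusted p from 0.0052 to 0.017. The call was lost when every gene with a value above 0 was tested (adjusted p = 0.11), a setting in which 15 genes of 28285 passed in all.

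PDGFC, whose product needs its CUB domain removed by a protease such as tPA before it can bind PDGFRA, lies on chromosome 4 at 156760454 to 156971394 (minus strand). Control libraries held 8.59, 9.77 and 11.2 FPKM and TGF-β1 libraries 12.6, 12.9 and 14.2 FPKM. The groups did not overlap, although control 3 was close to the lowest TGF-β1 library. The log2 change was 0.40 (SE 0.11, 95% interval 0.16 to 0.63) at an adjusted p of 0.076 in limma. It passed in voom, limma's count test, run on the fragments recovered from the FPKM (log2 change 0.43, adjusted p = 0.022), and without control 3 (0.49, adjusted p = 0.011). Leaving out any library but control 3 gave limma adjusted p from 0.078 to 0.31. The GC-adjusted change was 0.26 (adjusted p = 0.069).

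PDGFA encodes the A chain of PDGF-AA and PDGF-AB and lies on chromosome 7 at 497258 to 520296 (minus strand). Its mean was the lowest of the 10 genes in control cells, with 0.312, 0.277 and 0.198 FPKM in control and 0.731, 0.643 and 0.598 FPKM in TGF-β1 libraries. In fragments this was 29, 26 and 19 against 65, 64 and 59. The TGF-β1 libraries were all above the control libraries, and the ratio of the means was 2.51, the largest of the 10. Because no library reached 1 FPKM the gene was outside the limma test. In voom, which took in all 10 members and 14608 genes, the log2 change was 1.33 (SE 0.32, 95% interval 0.66 to 1.99, adjusted p = 0.013). In that test 4 members (PDGFA, PDGFB, PDGFC and VEGFC) passed higher and 0 lower, while 2.89% of all genes passed higher and 4.82% lower. With no filter on low genes the limma change on the compressed log2(FPKM + 1) scale was 0.39 (adjusted p = 0.31). Taking all 28285 genes with a value above 0, the groups did not overlap in 7.64% higher and 7.94% lower, against 4 of the 10 members higher and 0 lower.

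Summed over PDGFA, PDGFB, PDGFC and PDGFD, the remaining PDGF gene, ligand transcript stood at 57.5, 60.7 and 53.3 FPKM in control and 104, 94.7 and 90.7 FPKM in TGF-β1 libraries. PDGFB made up 79.5 ± 3.81% of that sum in control and 83.5 ± 1.80% in TGF-β1 libraries (SD, n = 3), and these shares overlapped between groups. PDGFD, which like PDGFC is a CUB-domain ligand, was at 1.36, 1.37 and 1.82 FPKM and then at 2.03, 1.92 and 1.92 FPKM (adjusted p = 0.19).

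VEGFC, the ligand of FLT4 that drives lymphatic growth, lies on chromosome 4 at 176683538 to 176792727 (minus strand). Control libraries held 3.27, 4.49 and 4.02 FPKM and TGF-β1 libraries 5.56, 5.51 and 6.39 FPKM, from 177 to 246 and 288 to 367 fragments per library. All TGF-β1 libraries were above all control libraries. The ratio of the means was 1.48 and the log2 change 0.47 (SE 0.11, 95% interval 0.23 to 0.72), at a limma adjusted p of 0.055. It passed in voom (0.58, adjusted p = 0.026), GC-adjusted (0.51, adjusted p = 0.017), and without control 2 or control 3 (adjusted p = 0.043 and 0.025), while without the other libraries the adjusted p was 0.060 to 0.23.

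VEGFB, a ligand of FLT1 known for roles in heart muscle and lipid handling, lies on chromosome 11 at 64234538 to 64238793 (plus strand). It was the highest member in control cells, at 68.8, 77.6 and 57.2 FPKM, against 59.3, 53.5 and 45.5 FPKM with TGF-β1. Control 3 fell inside the range of the TGF-β1 libraries, so the groups overlapped. The log2 change was -0.35 (SE 0.13, 95% interval -0.65 to -0.06, limma adjusted p = 0.15). Without control 3 the gene passed as lower (-0.47, adjusted p = 0.027), and the GC-adjusted change was -0.05 (95% interval -0.22 to 0.11, adjusted p = 0.71).

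VEGFA, the principal angiogenic ligand of KDR and FLT1 and a classical target of hypoxia-inducible factors, lies on chromosome 6 at 43770184 to 43786487 (plus strand). Its libraries held 2.54, 2.72 and 2.40 FPKM in control and 2.59, 2.39 and 2.41 FPKM with TGF-β1. All 6 values lay within a narrow band. The 95% interval of the log2 change was -0.24 to 0.16 around -0.04 (limma adjusted p = 0.82), from 799 to 889 fragments per library. The level of VEGFA depends strongly on the length it is divided by, since its annotated exons merge to 14431 of the 16304 bp of the gene. Per kilobase of its longest protein-coding transcript of 3535 bp it was 10.4 in control and 10.0 with TGF-β1, on the same depth scale.

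Within the VEGF ligands the shares of summed transcript differed between these libraries, which was not tested. VEGFC made up 4.38, 5.29 and 6.33% of the summed FPKM of VEGFA, VEGFB and VEGFC in control libraries and 8.24, 8.99 and 11.8% in TGF-β1 libraries. VEGFB made up 92.2, 91.5 and 89.9% and then 87.9, 87.1 and 83.8%. VEGFA, whose own level was nearly equal in both groups, made up 3.40, 3.21 and 3.77% and then 3.83, 3.89 and 4.44%. None of the 3 sets of shares overlapped between the groups, although those of VEGFA came close (3.77 and 3.83%). Levels of single genes did not overlap in 14.6% of tested genes higher and 12.5% lower. The 3 shares add up to the whole, so they are not separate results. Neither VEGFB nor VEGFC passed in limma (adjusted p = 0.15 and 0.055). All 3 are shares of a sum that is mostly VEGFB, whose GC-adjusted change was -0.05, and they depend on the gene lengths used. PGF, the placental member of the family, was at 0.871 ± 0.226 and 0.826 ± 0.207 FPKM (SD, n = 3).

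RefSeq (GRCh38.p14) gave a window upstream of the start site for 6 of the 10 genes, and PDGFB, PDGFC, VEGFA and FGFR1 were not among them. PDGFA and VEGFC are shown because they are the members with such a window whose groups did not overlap. Both are 250 bases that end just before the RefSeq start, at chr7:520227-520476 and chr4:176792923-176793172 (minus strand in both, written 5′ to 3′ along the gene). For PDGFA that start lies 70 bp inside the GENCODE gene, so the last 70 printed bases are within it. The VEGFC start lies 195 bp outside the GENCODE gene. For PDGFA the table holds 4 windows, and the one nearest the end of the GENCODE gene is shown. Capitals mark GGGCGG on either strand, the GC box that SP1-family factors recognise.
PDGFA: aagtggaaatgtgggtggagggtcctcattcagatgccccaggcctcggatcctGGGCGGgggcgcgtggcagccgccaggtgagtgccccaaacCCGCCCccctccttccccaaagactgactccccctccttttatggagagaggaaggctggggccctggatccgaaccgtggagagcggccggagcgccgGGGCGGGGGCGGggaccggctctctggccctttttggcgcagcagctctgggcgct
VEGFC: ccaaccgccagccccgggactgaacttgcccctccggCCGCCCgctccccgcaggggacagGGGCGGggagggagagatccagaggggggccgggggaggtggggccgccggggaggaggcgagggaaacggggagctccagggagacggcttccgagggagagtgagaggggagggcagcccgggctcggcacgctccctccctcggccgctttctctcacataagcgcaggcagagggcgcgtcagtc
PDGFA held 4 matches and VEGFC 2, while 42.6% of all 35116 windows held at least 1. Members with overlapping groups held 8 (FGFR3), 6 (VEGFB), 3 (FGF2) and 0 (FGFBP1). The SMAD-binding letters CAGAC (in 38.0% of windows) and the AP-1 letters TGANTCA (6.6%), searched on both strands, did not occur in these windows of PDGFA or VEGFC. Nor did ACGTG (18.5%), a form of the hypoxia-response letters. GCGTG, their other form, was not searched, and both printed windows hold it, counting both strands. None of the 4 motifs contains another. FGFBP1 differed in base composition, with 40.8% GC in its window against 68.8% for PDGFA and 74.0% for VEGFC. It held 0 GC boxes and 2 matches to CAGAC, and VEGFB held 1 match to CAGAC.

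FGF2, basic FGF, which is exported without a signal peptide and stored on heparan sulfate, lies on chromosome 4 at 122826708 to 122898236 (plus strand). Control libraries held 2.89, 2.90 and 3.81 FPKM and TGF-β1 libraries 3.74, 3.63 and 3.69 FPKM. Control 3 was the highest of all 6 and lay above the TGF-β1 group. The log2 change was 0.16 (SE 0.11, limma adjusted p = 0.33). It passed without control 3 (0.27, adjusted p = 0.037), and its GC-adjusted value was -0.01 (adjusted p = 0.95). NUDT6 on the opposite strand shares 804 bp, or 11.9%, of the annotated FGF2 exons, and reads of both cannot be told apart if the counting ignored strand. NUDT6 itself was at 0.475 ± 0.140 and 0.472 ± 0.0965 FPKM (SD, n = 3).

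FGFBP1, the carrier that mobilises FGF2, lies on chromosome 4 at 15935569 to 15938740 (minus strand) and was barely detected. It had 17, 19 and 12 fragments in control and 12, 17 and 10 in TGF-β1 libraries, or 0.310 to 0.618 FPKM over all 6. A change was not detectable at this depth, with a voom log2 change of -0.32 and a 95% interval of -1.26 to 0.64 (adjusted p = 0.71).

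FGFR1, the receptor kinase linked to mesenchymal-like bladder cancer cells, lies on chromosome 8 at 38400215 to 38468834 (minus strand). It was at 5.09, 5.10 and 4.52 FPKM in control and 5.16, 5.30 and 4.70 FPKM in TGF-β1 libraries. The groups overlapped almost fully, and the log2 change was 0.04 with a 95% interval of -0.17 to 0.24 (limma adjusted p = 0.83). These values rest on 1446 to 1761 fragments per library.

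FGFR3 lies on chromosome 4 at 1793293 to 1808872 (plus strand) and stayed below 1 FPKM in every library. Control libraries held 0.507, 0.465 and 0.491 FPKM and TGF-β1 libraries 0.241, 0.602 and 0.321 FPKM, from 25 to 70 fragments each. The control libraries lay close together and the TGF-β1 libraries on both sides of them. In voom the log2 change was -0.41 (95% interval -1.07 to 0.24, adjusted p = 0.43).

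**Figure D2:**
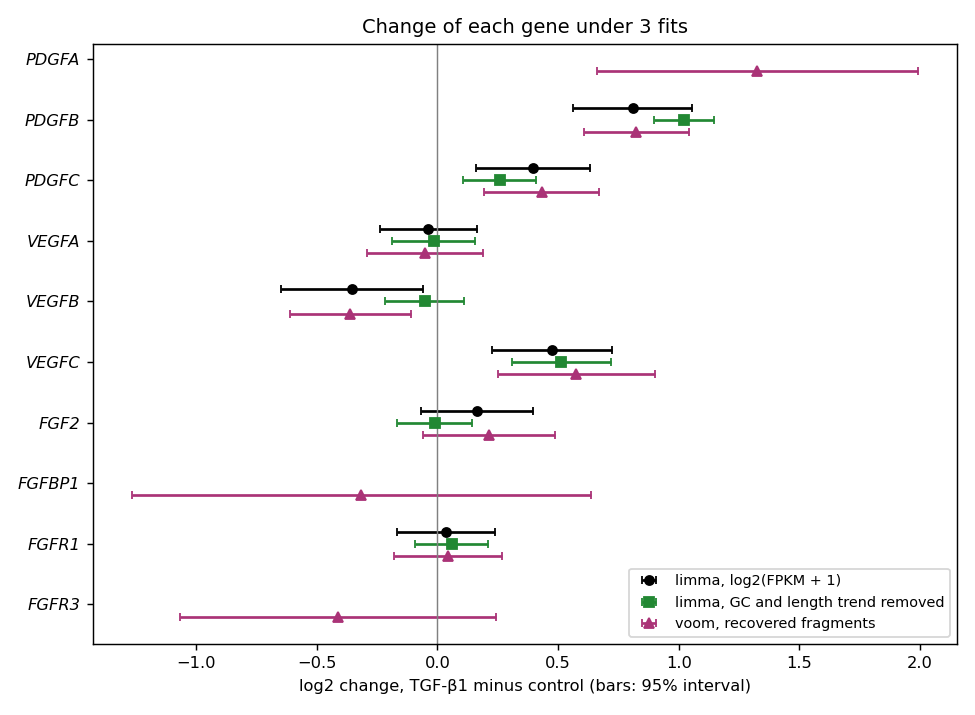
Log2 change (TGF-β1 minus control, horizontal axis) of each of the 10 genes with its 95% interval under limma on log2(FPKM + 1), under GC-adjusted limma, and under voom on recovered fragments. PDGFB lies right of 0 in all 3, VEGFB lies at -0.35 and GC-adjusted at -0.05, and PDGFA, FGFBP1 and FGFR3 have a value in voom alone.

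In control cells the order of levels in FPKM was VEGFB (67.8 ± 10.3, SD, n = 3), PDGFB (45.5 ± 4.85), PDGFC (9.87 ± 1.33), FGFR1 (4.90 ± 0.333), VEGFC (3.93 ± 0.618), FGF2 (3.20 ± 0.524), VEGFA (2.55 ± 0.162), FGFBP1 (0.520 ± 0.123), FGFR3 (0.488 ± 0.0212) and PDGFA (0.262 ± 0.0584). Neighbours whose library values overlapped were VEGFC with FGF2 and FGFBP1 with FGFR3, the latter pair also with TGF-β1. With TGF-β1 the order became PDGFB (80.5 ± 7.19), VEGFB (52.8 ± 6.93), PDGFC (13.3 ± 0.842), VEGFC (5.82 ± 0.491), FGFR1 (5.05 ± 0.317), FGF2 (3.69 ± 0.0564), VEGFA (2.46 ± 0.109), PDGFA (0.658 ± 0.0677), FGFBP1 (0.415 ± 0.106) and FGFR3 (0.388 ± 0.190). PDGFB and VEGFB thus stood in opposite order at the top, with no overlap between them in either group, and by their mean over all libraries they were at percentiles 94.0 and 93.6 of the tested genes. Per kilobase of the longest protein-coding transcript the first 3 places were the same in each group. On that scale FGFR1 (11.2) and VEGFA (10.4) came next in control cells.

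The changes of FGF2 and VEGFB, 2 of the 7 tested members, lay near a gradient with base composition that spanned all tested genes. Sorted into 10 equal groups by the GC content of their annotated transcripts, genes had a median log2 change of 0.18 in the group lowest in GC (up to 39.6%) and -0.27 in the highest (61.7% and above). FGF2, at 39.3% GC, and VEGFB, at 62.3% GC, were at 0.16 and -0.35. PDGFB, at 60.6% GC, lay in a group with a median of -0.18 and was at 0.81, and its GC-adjusted change was 1.02 (SE 0.05, adjusted p = 4.7e-05). VEGFC, at 49.1% GC, lay in a group with a median near 0 (0.004). What underlies this gradient was not tested.

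**Figure D3:**
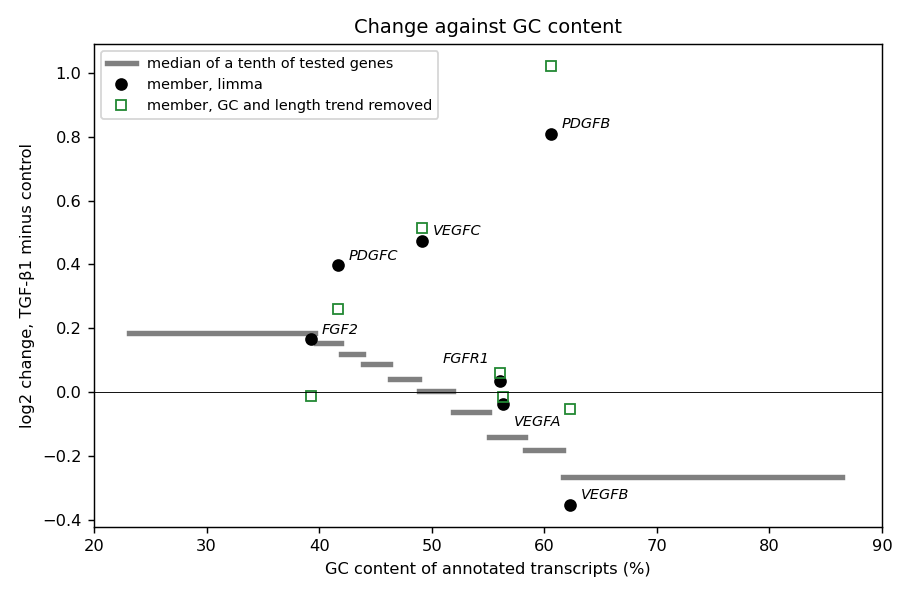
Log2 change (TGF-β1 minus control, vertical axis) against GC content of annotated transcripts in percent. Grey bars are medians of 10 equal groups of tested genes, filled circles the 7 tested members, and open squares the same members GC-adjusted; the grey medians run from 0.18 down to -0.27, and FGF2 and VEGFB sit close to them while PDGFB sits far above.

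Transcripts of the receptors for the PDGF and VEGF ligands were at or near 0. PDGFRA and FLT1 were listed at 0 in all 6 libraries, KDR had 2 fragments and FLT4 1 fragment in all, and PDGFRB had 19 fragments over the control and 10 over the TGF-β1 libraries. A count of 0 in a library allows up to 3 fragments, which covers counting error only. NRP1, the co-receptor of VEGFA, was at 1.04, 0.859 and 1.19 FPKM and at 0.924, 1.11 and 0.833 FPKM (adjusted p = 0.78). NRP2, the co-receptor of VEGFC, differed most: it was at 0.183, 0.219 and 0.224 FPKM in control and 0.807, 0.945 and 0.761 FPKM in TGF-β1 libraries. The TGF-β1 libraries were far above the control libraries, with 806 fragments in all against 198 and a ratio of means of 4.01. Below 1 FPKM throughout, NRP2 was outside the limma test, and in voom its log2 change was 1.99 (SE 0.21, 95% interval 1.56 to 2.43, adjusted p = 3.5e-07). With no filter on low genes limma gave an adjusted p of 0.12 on the compressed scale. Of the 8 genes in the list of PDGF and VEGF receptors and co-receptors, 2 were tested in limma (PDGFRL and NRP1) and 0 passed. In voom 1 of 3 passed higher, beside 2.89% of all genes. PDGFRL, a receptor-like protein without a kinase domain, was at 2.51 ± 0.427 and 1.89 ± 0.0630 FPKM (SD, n = 3, limma adjusted p = 0.16).

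The FGF receptors differed in level in control cells, with FGFRL1, which lacks the kinase domain, at 16.9 ± 1.38 FPKM (SD, n = 3), FGFR4 at 9.92 ± 1.71, FGFR1 at 4.90 ± 0.333, FGFR3 at 0.488 ± 0.0212 and FGFR2 at 7 fragments in all. Per kilobase of the longest protein-coding transcript, FGFRL1 (19.2 ± 1.57), FGFR4 (15.3 ± 2.65) and FGFR1 (11.2 ± 0.762) lay closer together, and FGFRL1 and FGFR4 overlapped. FGFR4 was at 10.2, 11.5 and 8.08 FPKM in control and 7.89, 7.79 and 6.53 FPKM with TGF-β1. These groups did not overlap, but the change of -0.37 missed the threshold (limma adjusted p = 0.12) and was -0.13 GC-adjusted. FGFR4 passed as lower without control 3 (-0.50, adjusted p = 0.015). FGFRL1 was at 16.2 ± 0.714 FPKM with TGF-β1 (adjusted p = 0.73), and its change of -0.05 was 0.02 with TPM scaling and 0.22 GC-adjusted.

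**Figure D4:**
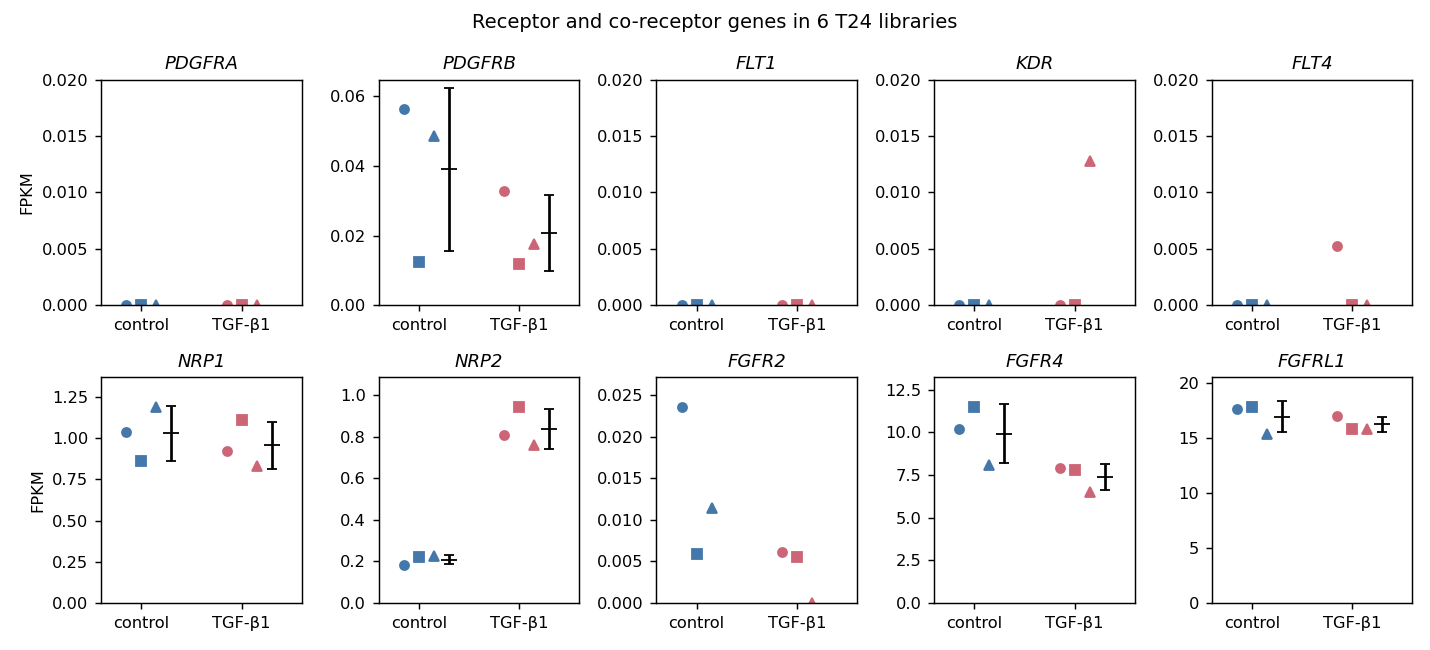
FPKM of 10 receptor and co-receptor genes (vertical axes from 0, a separate scale per gene) by library, with symbols as in the plot of the 10 growth factor genes. The mean and SD are left out where any library is at 0. NRP2 stands at 0.183 to 0.224 in control and 0.761 to 0.945 FPKM in TGF-β1 libraries, and PDGFRA and FLT1 are at 0.

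Among the other ligands, FGF5 was the most abundant FGF in these cells, above FGF2, at 7.91, 7.69 and 9.54 FPKM in control and 9.42, 9.75 and 10.3 FPKM with TGF-β1 (adjusted p = 0.21). FGF18 was at 0.756 ± 0.264 and 1.08 ± 0.210 FPKM (SD, n = 3, adjusted p = 0.26). Of 21 FGF ligands outside the members, 2 were tested and 0 passed in limma or in voom (4 tested), and 7 were listed at 0 in every library (FGF3, FGF4, FGF6, FGF10, FGF16, FGF19 and FGF23).

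Genes that release, process or bind the ligands showed 1 rise in 13 tested. Of the proteases and cofactors 5 were tested and 0 passed in limma or in voom (8 tested), with a median log2 change of -0.13; at an unadjusted p under 0.05 in limma there was 1, CTSD (adjusted p = 0.16, named after its values were seen). PLAU, which encodes uPA, was at 217 ± 22.3 and 191 ± 5.73 FPKM (adjusted p = 0.31). PLAT, which encodes tPA, was at 14.7 ± 0.562 and 14.3 ± 1.21 FPKM (adjusted p = 0.80), and FURIN, a convertase that cleaves PDGF and VEGFC precursors, at 36.9 ± 4.74 and 37.0 ± 4.23 FPKM (adjusted p = 0.98). PLAT was named after its values were seen. The median log2 change of the heparan sulfate list was 0.12. In it 1 of 8 tested genes rose and 0 fell, beside 1.14% and 1.29% of all tested genes. The gene that rose was NDST1, the sulfotransferase that starts sulfation of the chain. It was at 29.1, 27.3 and 28.5 FPKM in control and 46.4, 43.3 and 46.5 FPKM with TGF-β1 (log2 change 0.67, SE 0.10, limma adjusted p = 0.0030). EXT2, a subunit of the chain polymerase, was at 22.7 ± 0.651 and 26.2 ± 2.14 FPKM (adjusted p = 0.21).

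Downstream of the receptors, 0 of 13 tested adaptors passed, with a median log2 change of 0.17. At an adjusted p under 0.05 voom had 1 higher and 1 lower of 14, beside 2.89% and 4.82% of all genes. The abundant adaptors SHC1 (153 ± 10.5 and 158 ± 4.42 FPKM) and GRB2 (54.7 ± 3.40 and 50.3 ± 0.880 FPKM) had adjusted p of 0.79 and 0.42. In the list of FGF and ERK response genes 0 of 16 tested rose and 4 fell, with a median of -0.10. Over all tested genes 1.14% rose and 1.29% fell. In voom 1 of 18 was higher and 4 lower (2.89% and 4.82% of all genes). GC-adjusted 1 was higher and 3 lower (2.54% and 1.94% of all genes). The higher one was CCND1, a cyclin of the G1 phase, at 125 ± 6.12 and 155 ± 4.04 FPKM (SD, n = 3, adjusted p = 0.10 in limma, 0.040 in voom and 0.035 GC-adjusted, named after its values were seen). DUSP5, a nuclear ERK phosphatase, fell from 25.9 ± 1.44 to 11.8 ± 0.859 FPKM (log2 change -1.08, limma adjusted p = 0.00026). FOSL1, an AP-1 subunit, fell from 120 ± 6.48 to 72.5 ± 2.69 FPKM (adjusted p = 0.0030) and PHLDA1 from 19.6 ± 1.14 to 12.4 ± 1.43 FPKM (adjusted p = 0.0095). MYC was the fourth, at an adjusted p of 0.049 that was lost without any library but control 3 (0.075 to 0.18), GC-adjusted (0.12), with TPM scaling (0.12), with no filter (0.25), with a pseudocount of 0.1 (0.051) and without trend and robust estimation (0.066). The Sprouty and ETV genes of this list, classical targets of FGF receptor signalling, did not pass where tested.

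The hypoxia list, which bears on VEGFA, moved in both directions, with a median of -0.03. It had 1 of 16 tested genes higher and 2 lower, beside 1.14% and 1.29% of all tested genes. In voom 1 was higher and 4 lower, with BNIP3 and LOX added to the lower genes (2.89% and 4.82% of all genes). GC-adjusted 2 were higher, with ADM added, and the same 4 lower (2.54% and 1.94% of all genes). BNIP3, LOX and ADM were named after their values were seen. ANGPTL4, a secreted lipase inhibitor that TGF-β also induces, rose from 52.8 ± 8.70 to 140 ± 11.2 FPKM (SD, n = 3, limma adjusted p = 0.00033). DDIT4, an inhibitor of mTORC1, fell from 82.4 ± 13.1 to 43.6 ± 7.32 FPKM (adjusted p = 0.012) and NDRG1 from 5.01 ± 0.394 to 3.26 ± 0.205 FPKM (adjusted p = 0.020). The NDRG1 call was lost without control 1, control 2, TGF-β1 2 or TGF-β1 3 (adjusted p up to 0.12), with TPM scaling (0.091) and with no filter (0.17).

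**Figure D5:**
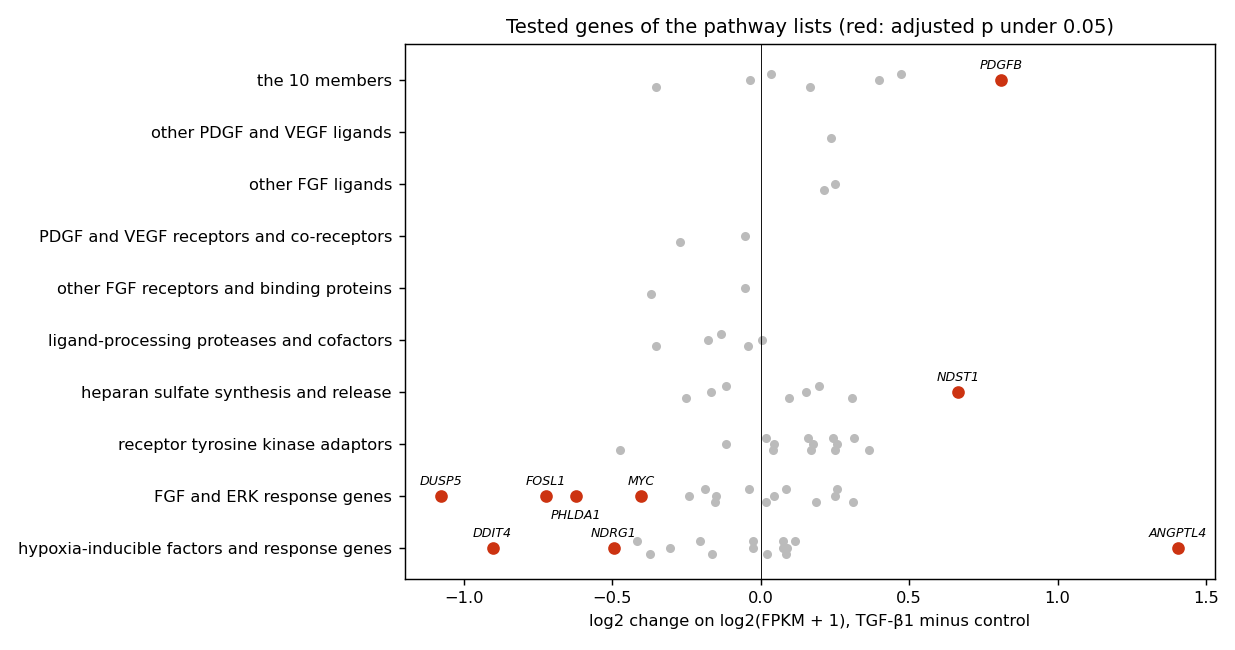
Log2 change on log2(FPKM + 1) (TGF-β1 minus control, horizontal axis) of each tested gene of the 10 members and of 9 pathway lists. Red points are genes past an adjusted p of 0.05: PDGFB, NDST1 and ANGPTL4 are higher, and DUSP5, FOSL1, PHLDA1, MYC, DDIT4 and NDRG1 are lower.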

How the data were processed

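The deposited values are FPKM that the authors computed, per the file names and headers, in 1 table of 6 columns and in 6 single-library files with equal values. Per the submitters' processing notes, HISAT2 2.0.5, featureCounts 1.5.0-p3 and build hg38 were used. Not given in the sources used here were annotation release, strand setting and kit. The first 11 rows are mapping totals and were left out.

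The test was limma 3.58.1 (R 4.3.3) on log2(FPKM + 1), a scale that understates changes of low genes, with trend and robust estimation, treatment as the only term, genes kept at 1 FPKM or more in 3 or more libraries, and an adjusted p of 0.05 as threshold. Exon lengths of GENCODE 29, matched by symbol for 56923 rows, turned 99.999% of 126561 values above 0 into whole fragments (within 0.05). By these, FPKM denominators are 0.964 to 1.04 times the assigned fragments. They lay below the assigned fragments in control 1 (0.992) and control 2 (0.964) and above them in the others, so they are not plain totals. What set them was not tested. The recovered fragments give the depths and entered voom (at least 10 fragments in 3 libraries). An exact permutation test of 3 against 3 cannot go below p = 0.1 and was not used. Libraries of a group differed by more than sampling noise (chi-square over degrees of freedom of 6.50 to 28.9). Named genes were all members, SMAD7, the receptors, and up to 4 members of each list past the threshold, or else the most abundant. Some listed genes are not reported here. Members and lists were chosen with earlier results of these data known. The fit was also run on simulated data. These had neither a GC gradient nor a library that deviates from its group, so they do not show how the fit handles either.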

Additional observations from a re-analysis of the deposited data

How the results depend on the processing

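The PDGFB change kept its direction in all settings and its call in all but the one with no filter (log2 change 0.81, adjusted p = 0.11). Besides those named below, the settings were a pseudocount of 0.1, median-of-ratios scaling and limma with neither trend nor robust estimation; voom and the longest-transcript length were added after the data were seen. Against 1 member higher, there were 0 with no filter, 3 at 5 FPKM, 2 GC-adjusted, 4 by voom, and 1 to 4 with a library left out, where 0 to 1 were lower. The 3 at 5 FPKM include VEGFC, which met that filter through its TGF-β1 libraries alone. Against 130 genes higher and 147 lower, there were 11 and 4 with no filter, 179 and 321 at 5 FPKM, 135 and 85 with TPM, 289 and 220 GC-adjusted, and 422 and 704 by voom. Leaving out a library gave 72 to 1435 higher and 39 to 1872 lower. The highest counts came without control 3, the library farthest from its group (median absolute deviation 0.123, against 0.0476 to 0.0891 in the other libraries on the log2 scale). Pathway genes, 2 higher and 6 lower of 65 tested, were 0 and 1 with no filter, 4 and 7 GC-adjusted, and 4 and 9 by voom. With a library left out they were 2 to 14 higher and 4 to 15 lower. The highest of these came without control 3, where 12.8% of all genes passed higher and 16.8% lower. These counts cover the 65 genes tested in limma, so NRP2, which passed in voom, is not among them. The changes of named genes that turned direction were all small: VEGFA at 0.026 and FGFRL1 at 0.023 with TPM, FGF2 at -0.011 and FGFRL1 at 0.215 GC-adjusted, and, without 1 library, FGFR1 at -0.012 to 0.079, SHC1 at -0.013 to 0.078 and FURIN at -0.104 to 0.093, all below 0 without control 3, and FURIN also without TGF-β1 library 1 (-0.069) or 2 (-0.009). PGF, below the filter, was above 0 without control 1 (0.062) or TGF-β1 library 1 (0.063). The causes were not tested.

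With the replicate number as a block there were 249 genes higher and 518 lower and 3 members higher (PDGFB, PDGFC and VEGFC; 2.19% of all genes higher and 4.56% lower), and FGFR4 passed as lower (adjusted p = 0.048). With the block and GC-adjusted there were 249 and 244, with 2 members higher, FGF2 at -0.011 and FGFRL1 at 0.215. Same-numbered libraries correlated at 0.25, -0.07 and 0.17 in their deviations from the group means, and differently numbered ones at -0.24 to 0.07. So few values cannot decide whether the numbers pair the samples. Depth limits PDGFA, FGFR3 and FGFBP1, where 3 fragments correspond to 0.0258 to 0.103 FPKM.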
